A study of Mus musculus with 12 samples.

Results

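The genes described here encode the machinery by which antigen-presenting cells show peptides from endocytosed proteins to CD4+ T cells. The set held 9 genes: H2-Aa, H2-Ab1, H2-Eb1, Cd74, H2-DMa, H2-DMb1, H2-Oa, H2-Ob and Ciita. They were picked by symbol in the platform annotation, using probe sets that name 1 gene and, for a gene with several, the brightest by mean over all arrays. Of the 9 genes, 8 were measured in this way, each by 1 probe set, among 19937 genes in all. The only probe set of H2-DMb1 also names H2-DMb2, so H2-DMb1 has no value here.

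The study profiled lung tissue from female mice labelled C57BL/6 on Affymetrix whole-transcript arrays, with 12 arrays in 4 groups of 3. The groups were RelA/p65 deficient mice exposed to smoke, RelA/p65 deficient mice exposed to air, wild type mice exposed to smoke and wild type mice exposed to air. All samples were labelled as Lewis lung carcinoma cells taken out of the lungs; Lewis lung carcinoma is a mouse lung cancer line of C57BL/6 origin. The series title places the role of p65 in myeloid cells, but the labels name neither the promoter or Cre that drives the deletion, nor the deleted part, nor the animals' age or the length of exposure.

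Values are log2 array intensities, so a difference of 1 is a doubling of intensity, and the level of 1 gene cannot be set against that of another. Precision rests on 3 arrays a group. The labels do not say whether these stem from different mice, and a p-value here reflects only how far the arrays of a group spread. Correlations between arrays of 1 group ran between 0.990 and 0.998 over all genes, and no pair of arrays was identical. The lowest of these lay in the wild type smoke group, where replicate 1 also had the lowest array weight of the 12, 0.177, against 4.53 for replicate 2, the highest. Without that array all 8 measured genes still passed in both genotype comparisons, 4 passed for smoke in p65-deficient mice, 7 for smoke in wild type mice and 4 for the interaction. Rela, which encodes p65, was checked first. It measured 9.30, 9.37 and 9.27 in the p65-deficient smoke arrays, against 9.04, 9.01 and 9.19 in the wild type smoke arrays. In air it measured 9.45, 9.44 and 9.38 in the p65-deficient arrays, against 9.25, 9.16 and 9.26 in the wild type arrays. Rela was thus not lower in the arrays labelled deficient: it was higher by 0.23 ± 0.07 in smoke (SE, limma adjusted p = 0.00873) and by 0.20 ± 0.07 in air (adjusted p = 0.0285). Where the probes lie relative to a deleted part is not given in the sources used here, so the measurement does not settle the genotype, and "p65-deficient" below means the arrays labelled so. The labels' strain was set against H2-Ea, the alpha chain gene of I-E, because C57BL/6 mice carry a deletion in its promoter that is known to silence it. H2-Ea measured 11.48, 11.55 and 11.52 in the p65-deficient smoke arrays, against 6.73, 5.51 and 6.41 in the wild type smoke arrays, a 39.4-fold difference (5.30 ± 0.32, SE, limma adjusted p = 1.25e-08). In air it measured 8.89, 8.59 and 9.95 in the p65-deficient arrays and 9.47, 9.71 and 9.95 in the wild type arrays. What these signals reflect in mice labelled C57BL/6, the strain or what the probes bind, was not tested. Whether the groups carry the same alleles at the class II locus was not tested, and this applies to every comparison below of the H2 genes, which lie on chromosome 17. Of the other measured members, Ciita lies on chromosome 16 and Cd74 on chromosome 18. Genes of normal lung were bright although the tissue is labelled as carcinoma cells: the mean log2 level of the type II alveolar cell markers was 9.08 to 12.23 over the 12 arrays, beside array medians over all genes of 7.26 to 7.51.

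A class II molecule is a pair of chains, alpha and beta, that meets the invariant chain Cd74 in the endoplasmic reticulum and is carried to endosomes. There proteases cut the invariant chain down to a short peptide, which the H2-DM dimer exchanges for antigen peptides, while the H2-O dimer holds H2-DM back. Ciita, the class II transactivator, binds no DNA itself: it docks on the factors that sit on the X and Y boxes of these promoters, and interferon-gamma is its best known inducer. B cells, dendritic cells and macrophages carry the pathway constitutively or after activation, and type II alveolar cells of the lung express it as well.

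RefSeq promoter windows (build GRCm38.p6, 250 bases before to 50 after a start) were held for 6 of the 9 genes, with 2 windows for H2-DMa. H2-Ab1, Cd74 and Ciita had no window in the table. The 180 bases before the start are printed for 5 genes on chromosome 17, to show pattern matches to the boxes through which Ciita is known to act. Capitals mark matches to the X box core (AG, any 2 bases, AC, any 2 bases, ATG) and to the Y box (ATTGG, or CCAAT where it lies on the opposite strand). The windows are H2-Eb1 at chr17:34305687-34305866 on the plus strand, H2-DMb1 at chr17:34153011-34153190 on the plus strand, H2-Ob at chr17:34238725-34238904 on the plus strand, H2-Oa at chr17:34092199-34092378 on the plus strand and H2-Aa at chr17:34287824-34288003 on the minus strand.
H2-Eb1: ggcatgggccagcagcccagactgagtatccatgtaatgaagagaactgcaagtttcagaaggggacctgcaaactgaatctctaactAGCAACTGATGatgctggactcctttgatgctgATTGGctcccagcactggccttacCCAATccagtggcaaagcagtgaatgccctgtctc
H2-DMb1: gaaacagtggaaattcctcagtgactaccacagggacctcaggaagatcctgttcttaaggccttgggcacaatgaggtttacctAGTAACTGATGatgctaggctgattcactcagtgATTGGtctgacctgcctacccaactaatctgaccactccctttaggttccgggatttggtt
H2-Ob: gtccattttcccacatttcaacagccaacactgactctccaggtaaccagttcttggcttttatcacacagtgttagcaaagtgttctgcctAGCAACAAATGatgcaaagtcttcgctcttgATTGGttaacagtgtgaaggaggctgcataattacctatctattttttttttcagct
H2-Oa: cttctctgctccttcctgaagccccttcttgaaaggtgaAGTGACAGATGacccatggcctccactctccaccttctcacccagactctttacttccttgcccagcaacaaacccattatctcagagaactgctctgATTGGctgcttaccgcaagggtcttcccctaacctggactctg
H2-Aa: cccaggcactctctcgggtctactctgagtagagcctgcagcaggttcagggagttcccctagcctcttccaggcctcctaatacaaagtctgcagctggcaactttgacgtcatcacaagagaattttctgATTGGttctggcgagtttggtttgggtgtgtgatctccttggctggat

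In H2-Eb1, H2-DMb1 and H2-Ob the X box core began 92, 95 and 88 bases before the start, and the nearest Y box followed 22, 23 and 20 bases after the end of the X box core. In H2-Oa the only match to the X box core pattern began 141 bases before the start, with 87 bases between it and the Y box. The pattern is fixed, so an X box with other letters goes unmarked. Whether the H2-Oa match is the box used by that gene was not tested. The H2-Aa window matched the Y box pattern alone, 48 bases before the start, which does not show that an X box is absent. Of the H2-DMa windows, 1 matched neither pattern and the other held only a Y box, 198 bases before the start. Searched on both strands, the X box core occurred in 3.09% of 32851 mouse promoter windows of the same length, the Y box in 37.4%, and both in 1.42%. A loose NF-kB pattern (GGG, any 5 bases, CC, both strands) was found in H2-Aa, H2-Eb1, H2-Oa and the first H2-DMa window, and in 50.8% of all windows. Matches overlapped within H2-Aa and within H2-Oa, and in H2-Eb1 the NF-kB match overlapped the second Y box. These matches describe letters in the windows only.

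**Figure D1:**
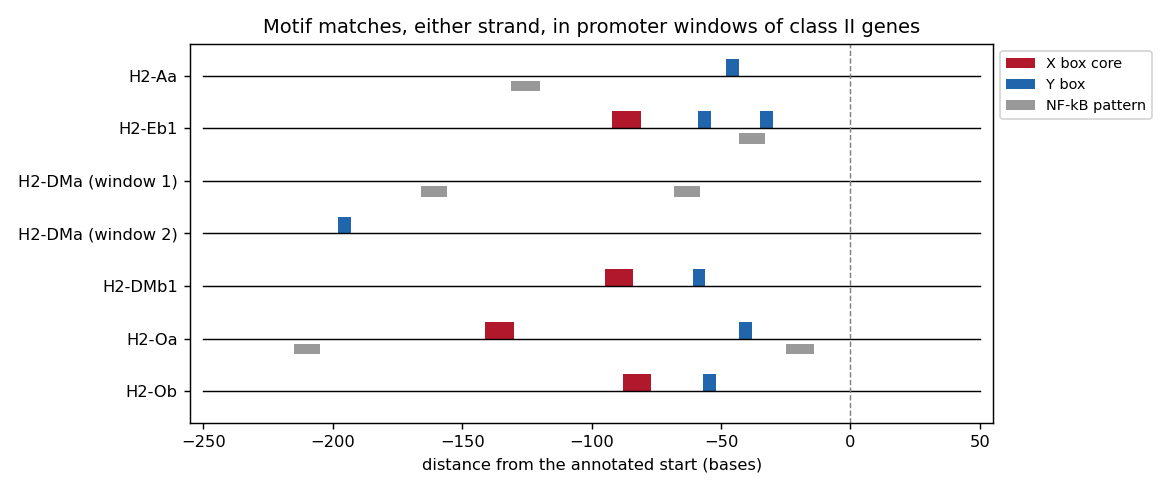
Positions of pattern matches in the 7 promoter windows of 6 class II genes, in bases from the transcription start (horizontal axis), with symbols for the X box core, the Y box and the NF-kB pattern. In H2-Eb1, H2-DMb1 and H2-Ob the match to the X box core pattern begins 92, 95 and 88 bases before the start. The only match in H2-Oa begins 141 bases before the start, and an X box with other letters goes unmarked.

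The first question was whether class II genes differ between lungs of p65-deficient and wild type mice under smoke. All 8 measured genes were higher in the p65-deficient smoke arrays, by 1.37-fold for H2-Oa up to 5.01-fold for Cd74, and none of the 8 had overlapping groups. That count stands beside a wide change: 59.6% of all genes passed the same test (limma, adjusted p under 0.05), 22.7% of all genes were higher by it, and 23.6% had p65-deficient arrays wholly above. The median difference of the 8 genes was 1.66, against -0.14 over all genes.

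The classical chains bind the peptide and meet the T cell receptor. H2-Aa, the alpha chain of the I-A molecule, measured 12.13, 12.32 and 12.17 in the p65-deficient smoke arrays, against 10.53, 10.32 and 10.26 in the wild type smoke arrays. H2-Ab1, its beta chain partner, measured 12.21, 12.56 and 12.18 in the p65-deficient smoke arrays and 10.84, 10.54 and 10.41 in the wild type ones. H2-Eb1, the beta chain of I-E, measured 11.92, 12.08 and 11.88 in the p65-deficient smoke arrays, against 10.17, 10.14 and 10.22 in the wild type smoke arrays. In each of these genes the lowest p65-deficient array lay more than 1 log2 unit above the highest wild type array. The differences were 1.84 ± 0.11 for H2-Aa (SE, adjusted p = 9.69e-09), 1.72 ± 0.17 for H2-Ab1 (1.47e-06) and 1.78 ± 0.09 for H2-Eb1 (2.04e-09). Cd74 moved furthest of the 8 under smoke. This chain blocks the groove until the molecule reaches the endosome, and it measured 11.95, 12.19 and 11.85 in the p65-deficient smoke arrays, against 9.76, 9.62 and 9.62 in the wild type smoke arrays (difference 2.32 ± 0.11, adjusted p = 1.40e-09).

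The peptide editors differed in size. H2-DMa, a chain of the exchange factor, measured 8.65, 8.65 and 8.48 in the p65-deficient smoke arrays, against 7.45, 7.21 and 7.13 in the wild type smoke arrays (1.33 ± 0.10, adjusted p = 8.01e-08). H2-Ob, the beta chain of the H2-DM inhibitor and a gene known mainly from B cells, measured 7.61, 7.72 and 7.69 in the p65-deficient smoke arrays, against 6.12, 6.27 and 5.83 in the wild type smoke arrays (1.60 ± 0.11, adjusted p = 3.32e-08). Its alpha chain partner H2-Oa had the smallest step, with 7.05, 7.26 and 7.12 in the p65-deficient smoke arrays and 6.43, 6.91 and 6.74 in the wild type ones (0.46 ± 0.11, adjusted p = 0.00306). H2-Ob was thus 3.03-fold and H2-Oa 1.37-fold higher in the p65-deficient arrays. The transactivator Ciita measured 7.57, 7.74 and 7.51 in the p65-deficient smoke arrays, against 6.79, 6.91 and 6.77 in the wild type smoke arrays, a 1.72-fold difference (0.78 ± 0.08, adjusted p = 1.45e-06). Only H2-Oa had a smaller fold than Ciita among the 8 genes in this comparison.

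**Figure D2:**
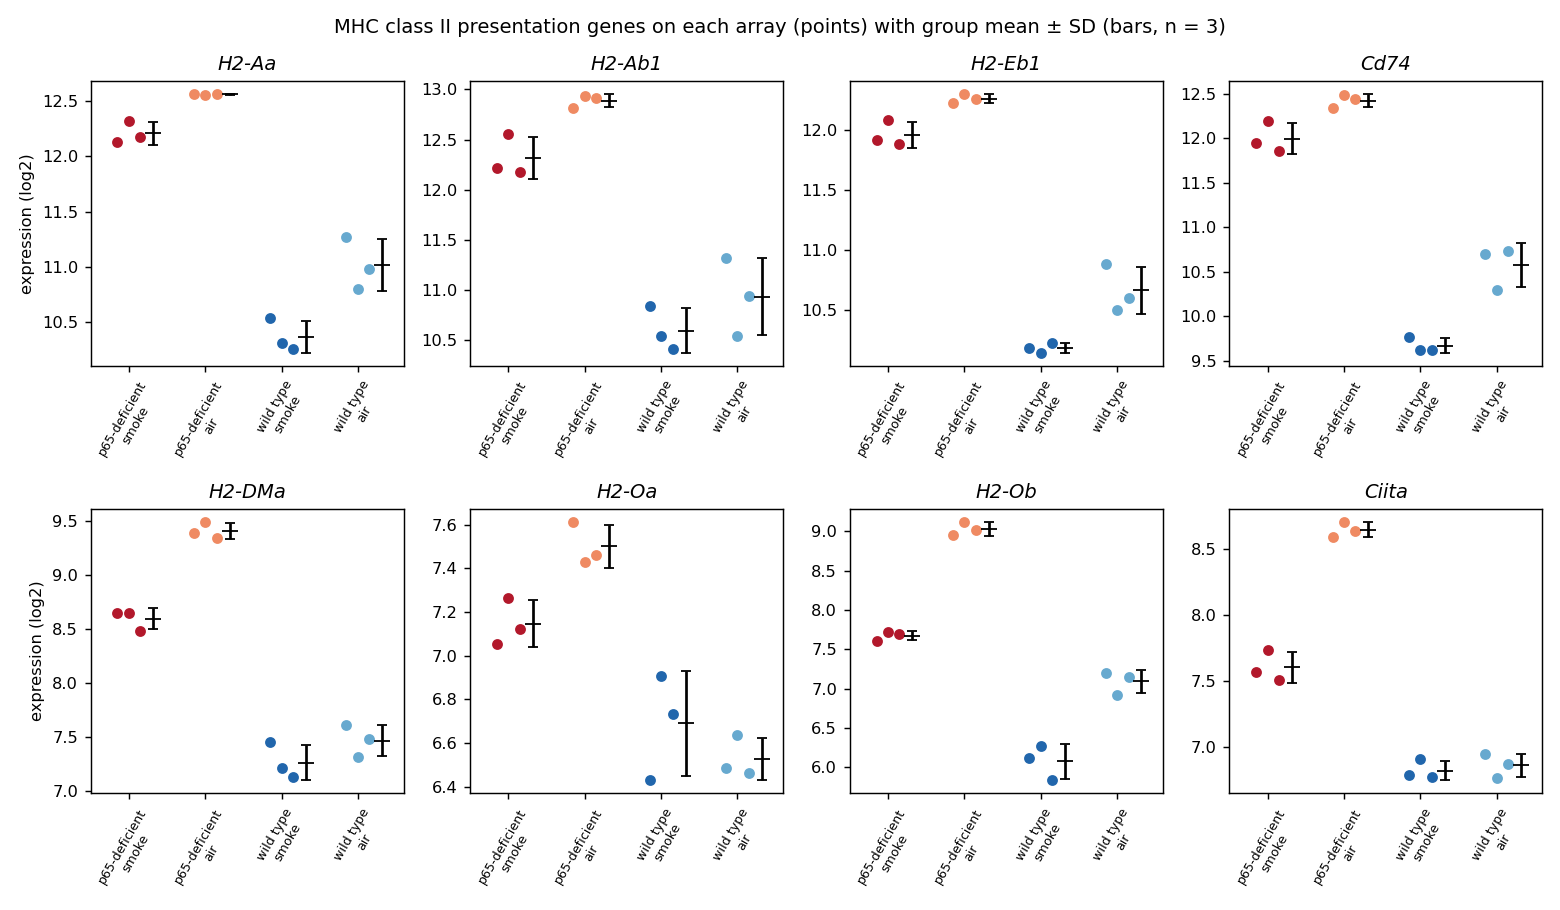
Log2 intensity (vertical axis) of the 8 measured class II genes in each of the 12 arrays, with a bar for the mean ± SD of the 3 arrays of a group; groups run from p65-deficient smoke, p65-deficient air and wild type smoke to wild type air. In all 8 genes the p65-deficient groups sit wholly above the wild type groups, and the p65-deficient air arrays are the highest.

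The same comparison was made in air. All 8 genes were higher in the p65-deficient air arrays, by 1.97-fold for H2-Oa to 3.88-fold for H2-Ab1, again with no overlap between groups. In this comparison 38.5% of all genes passed the test, 20.5% of all genes were higher by it, and 25.6% lay wholly above. The median difference of the 8 genes was 1.82, against -0.03 over all genes.

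Among the chains, H2-Aa measured 12.56, 12.55 and 12.56 in the p65-deficient air arrays, against 11.27, 10.80 and 10.98 in the wild type air arrays (difference 1.54 ± 0.11, adjusted p = 2.63e-07). H2-Ab1 measured 12.81, 12.94 and 12.92 in the p65-deficient air arrays, against 11.31, 10.54 and 10.94 in the wild type air arrays (1.96 ± 0.17, adjusted p = 1.13e-06). The wild type air arrays of H2-Ab1 had the widest spread of any group among the 8 genes, 0.39 (SD, n = 3). H2-Eb1 measured 12.23, 12.31 and 12.26 in the p65-deficient air arrays and 10.88, 10.50 and 10.60 in the wild type air arrays (1.60 ± 0.09, adjusted p = 5.86e-08). Cd74 measured 12.34, 12.48 and 12.44 in the p65-deficient air arrays, against 10.70, 10.30 and 10.73 in the wild type air arrays (1.85 ± 0.11, adjusted p = 1.07e-07). All 4 genes of the peptide-binding complex were thus between 2.91-fold and 3.88-fold higher.

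H2-DMa measured 9.39, 9.49 and 9.34 in the p65-deficient air arrays, against 7.61, 7.32 and 7.48 in the wild type air arrays (1.94 ± 0.10, adjusted p = 2.62e-08). H2-Ob measured 8.95, 9.12 and 9.02 in the p65-deficient air arrays, against 7.20, 6.92 and 7.15 in the wild type air arrays (1.94 ± 0.11, adjusted p = 5.01e-08). H2-Oa measured 7.61, 7.43 and 7.46 in the p65-deficient air arrays, against 6.48, 6.63 and 6.46 in the wild type air arrays (0.97 ± 0.11, adjusted p = 1.06e-05). Exchange factor and inhibitor were both higher, H2-Oa again by the least. Ciita measured 8.59, 8.71 and 8.64 in the p65-deficient air arrays, against 6.95, 6.77 and 6.87 in the wild type air arrays, 3.44-fold higher (1.78 ± 0.08, adjusted p = 9.83e-09). The 2 genotype comparisons share no arrays.

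Smoke within p65-deficient mice came next. All 8 genes had smoke arrays wholly below air arrays, which 13.7% of all genes also did, and 3 of the 8 passed the test: H2-Ob, Ciita and H2-DMa, all lower. Over all genes 2.41% passed, and 1.72% were lower by the test. The median difference of the 8 genes was -0.50, against -0.00 over all genes.

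H2-Ob, given per array above, averaged 7.67 ± 0.06 in p65-deficient smoke arrays and 9.03 ± 0.09 in p65-deficient air arrays (SD, n = 3 each), 2.57-fold lower under smoke (-1.36 ± 0.11 SE, adjusted p = 1.04e-05). Ciita averaged 7.61 ± 0.12 in smoke and 8.65 ± 0.06 in air, 2.06-fold lower under smoke (-1.04 ± 0.08, adjusted p = 5.71e-06). H2-DMa averaged 8.59 ± 0.10 in smoke and 9.41 ± 0.08 in air, 1.76-fold lower (-0.81 ± 0.10, adjusted p = 0.000385). The called genes thus encode the transactivator and 1 chain each of the exchange factor and its inhibitor; the other inhibitor chain, H2-Oa, did not pass. The other 5 genes were lower in every smoke array but missed the threshold: H2-Ab1 by -0.57 ± 0.17 (adjusted p = 0.130), Cd74 by -0.43 ± 0.11 (0.088), H2-Aa by -0.35 ± 0.11 (0.158), H2-Oa by -0.35 ± 0.11 (0.155) and H2-Eb1 by -0.30 ± 0.09 (0.140). All 8 were lower with an unadjusted p under 0.05, as were 1310 of all 19937 genes, while 774 were higher. The count was 8 when array weights were used or when the 6 p65-deficient arrays were fitted alone, and 5 when replicate 2 of the wild type air group was left out, which added H2-Ab1 and Cd74. H2-Eb1 passed without wild type air replicate 1, and H2-Oa without wild type smoke replicate 1.

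Smoke was then compared with air in wild type mice. Of the 8 genes 4 were lower under smoke and none was higher: Cd74, H2-Ob, H2-Aa and H2-Eb1; none had an unadjusted p under 0.05 in the upward direction. Over all genes 29% passed, 14% were lower by the test, and 16.2% lay wholly below, as those 4 did. The median difference of the 8 genes was -0.41, against 0.08 over all genes.

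H2-Ob averaged 6.07 ± 0.22 in wild type smoke arrays and 7.09 ± 0.15 in wild type air arrays, 2.02-fold lower (-1.02 ± 0.11, adjusted p = 8.52e-06). Cd74 averaged 9.67 ± 0.08 in smoke and 10.58 ± 0.24 in air, 1.87-fold lower (-0.90 ± 0.11, adjusted p = 5.13e-05). H2-Aa averaged 10.37 ± 0.15 in smoke and 11.02 ± 0.24 in air, 1.57-fold lower (-0.65 ± 0.11, adjusted p = 0.000606). H2-Eb1 averaged 10.18 ± 0.04 in smoke and 10.66 ± 0.20 in air, 1.40-fold lower (-0.48 ± 0.09, adjusted p = 0.00146). Groups overlapped for H2-Ab1 (-0.34 ± 0.17, adjusted p = 0.145), H2-DMa (-0.20 ± 0.10, 0.129), H2-Oa (0.16 ± 0.11, 0.266) and Ciita (-0.04 ± 0.08, 0.710). The interval for the smoke difference of Ciita in wild type mice ran between -0.20 and 0.13 (95%). The count was 7 (6 lower and H2-Oa higher) with array weights and also without replicate 1 of the wild type smoke group; H2-Ab1 also passed without wild type air replicate 2.

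Whether smoke acted differently in the 2 genotypes was tested as the interaction, the smoke difference in p65-deficient mice minus that in wild type mice. It was negative and past the test for Ciita, H2-DMa and H2-Oa, while 14.6% of all genes passed in either direction and 5.7% with a negative sign. For Ciita it was -1.0 ± 0.11 (SE, adjusted p = 2.09e-05, 95% interval -1.23 to -0.77). The gene was lower under smoke by 1.04 in p65-deficient mice and by 0.04 in wild type mice. For H2-DMa it was -0.61 ± 0.14 (adjusted p = 0.00779). For H2-Oa it was -0.52 ± 0.15 (adjusted p = 0.0396), and that call was lost, with adjusted p up to 0.106, without any one of 9 arrays: wild type air 1 or 3, wild type smoke 2 or 3, p65-deficient air 1, 2 or 3, and p65-deficient smoke 1 or 3.

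Cd74 had an interaction of the opposite sign, 0.48 ± 0.16 (adjusted p = 0.0699, interval 0.13 to 0.83), and passed under 5 of 20 settings, among them leaving out wild type air replicate 2 or wild type smoke replicate 1. H2-Aa was at 0.30 ± 0.15 (adjusted p = 0.235, interval -0.04 to 0.63), H2-Eb1 at 0.18 ± 0.13 (0.392), H2-Ab1 at -0.23 ± 0.24 (0.548) and H2-Ob at -0.34 ± 0.15 (0.160). None of these 5 passed, although H2-Ob did without wild type smoke replicate 3. Whether the interactions of 2 members differ from each other was not tested.

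**Figure D3:**
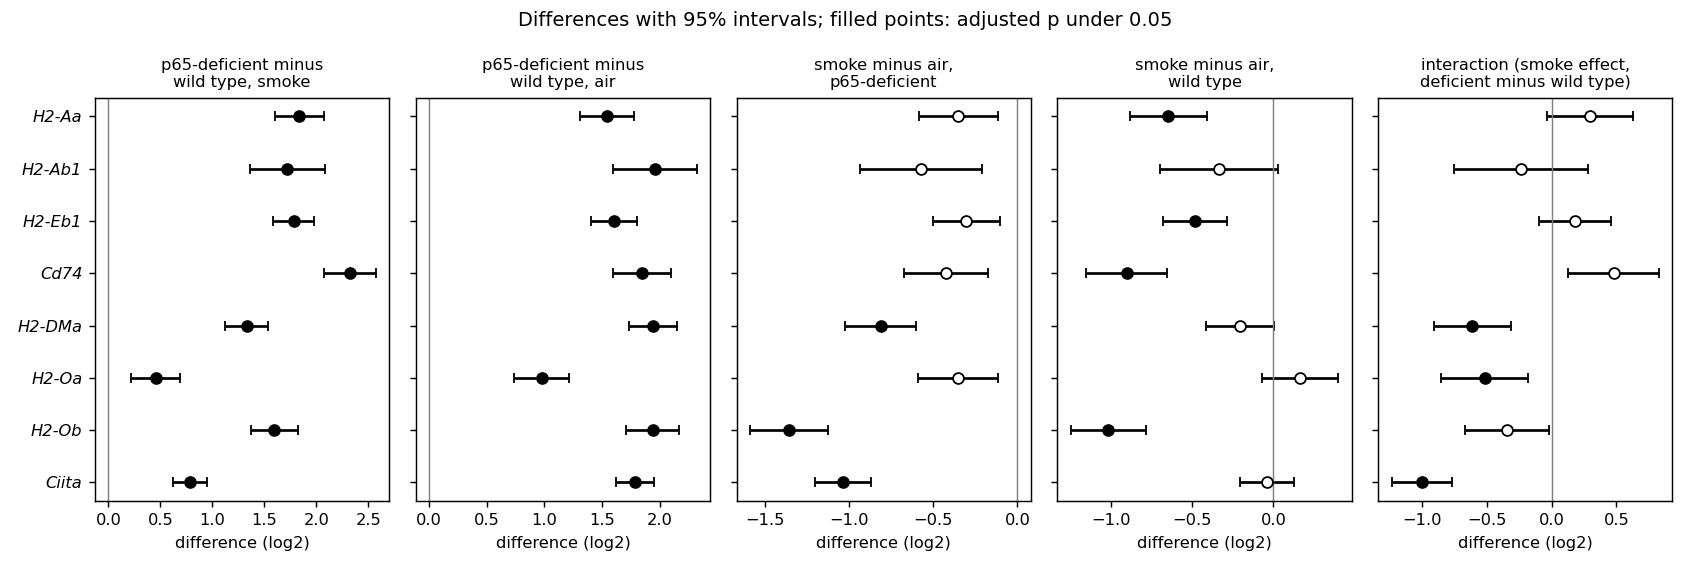
Differences in log2 intensity with 95% intervals for the 8 class II genes, in 5 panels: p65-deficient against wild type under smoke and in air, smoke against air in each genotype, and the interaction; filled points have an adjusted p under 0.05. All 8 points are filled in the genotype panels, 3 in the panel for smoke in p65-deficient mice, 4 in that for wild type mice and 3 in the interaction panel.

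Set in order of their means, 7 of the 8 genes ran p65-deficient air, p65-deficient smoke, wild type air, wild type smoke, high to low. H2-Oa alone had wild type smoke above wild type air. Neighbouring groups in that order did not overlap except the 2 wild type groups of H2-Ab1, H2-DMa, H2-Oa and Ciita.

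Likeness between genes was measured as the root mean square difference over the 12 arrays, after centring each gene on its own mean; smaller is more alike. Among the members, H2-Aa and H2-Eb1 were closest, at 0.0939 log2 units, and Cd74 and H2-Oa were farthest apart, at 0.809. Ciita and H2-DMa were 0.221 apart. Members were left out of the further search, over 14519 other genes with a mean log2 of at least 6. Of these, the nearest to H2-Aa were Ifih1 at 0.0841, Kcnj2 at 0.107 and H2-Q5 at 0.135. Those nearest to H2-Ab1 were H2-Q4, Cytip and Fgl2, at 0.146 to 0.163, and to H2-Eb1 were H2-Q5, Kcnj2 and Ms4a4b, at 0.124 to 0.144. Nearest to Cd74 was the T cell receptor subunit gene Cd3g at 0.133, then Cytip at 0.134 and Ifit3b at 0.147. The closest genes to Ciita were Wars at 0.103, Nr4a1 at 0.115 and H2-K2 at 0.138. Around H2-DMa lay Itga4, Gm8995 and Irgm1, at 0.109 to 0.152, and around H2-Oa lay Ntrk2, Tagap and Cd4, at 0.0941 to 0.106. H2-Ob had no gene closer than Itgal at 0.269, with Stap1 at 0.301 and Gbp9 at 0.307. The measure is not scaled to a gene's own movement, which by root mean square was 1.08 for H2-Ob and 0.402 for H2-Oa. Distance did not simply follow movement: Cd74 moved by 1.11 and still had a gene at 0.133.

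Further genes of the locus and the pathway were read from fixed lists. H2-Eb2, a second I-E beta chain gene, averaged 6.18 in p65-deficient smoke arrays, 7.60 in p65-deficient air arrays, 5.89 in wild type smoke arrays and 5.69 in wild type air arrays. It was higher in p65-deficient air than in wild type air by 1.92 ± 0.15 (adjusted p = 4.87e-07), lower under smoke in p65-deficient mice by -1.42 ± 0.15 (0.000125), and had an interaction of -1.62 (0.000105). Both wild type means of H2-Eb2 lay below log2 6, the level at which a filter on dim genes was set. Whether so low a level hid a smoke difference in wild type mice was not tested. The groups of H2-Ea, given at the start, stood in another order than those of the members.

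The enhanceosome genes encode the factors on the X and Y boxes, to which Ciita binds. Of 7, none was higher and 3 were lower in p65-deficient than in wild type mice under smoke: Nfyb by -0.34 (adjusted p = 0.00552), Nfya by -0.29 (0.00142) and Nfyc by -0.21 (0.0246). In air Nfyb (-0.35) and Nfya (-0.20) were lower and none was higher, with 1 at an unadjusted p under 0.05 upward. By the same test 7368 of all 19937 genes were lower under smoke and 3591 in air. Under smoke against air none of the 7 passed in p65-deficient mice, where 0 had an unadjusted p under 0.05, nor in wild type mice, where 1 did, upward. Under quantile normalization or median centring 2 of 7 passed upward in wild type mice. The X box factors Rfx5, Rfxank and Rfxap passed in none of these 4 comparisons as reported.

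Genes that make or trim the peptide and turn class II over went both ways. Under smoke 6 of 10 were higher and 3 lower in p65-deficient than in wild type mice, with a median of 0.25; with median centring 4 were higher. Ctsh, a lysosomal aminopeptidase, was higher by 2.06 ± 0.11 (adjusted p = 3.63e-09), and Ctsd, an aspartic protease, by 0.60 (3.29e-06). Ctsl, a cysteine protease that cuts the invariant chain in thymic epithelium, was lower by -0.53 (9.26e-05). In air 6 were higher and 1 lower, with a median of 0.38. Ctss, which cuts the invariant chain in B cells and dendritic cells, was higher by 0.93 ± 0.12 (3.49e-05), and Sppl2a, which clears its stub, by 0.50 (2.13e-05). Smoke changed none of the 10 past the test in p65-deficient mice, where 4 had an unadjusted p under 0.05. In wild type mice 3 were higher under smoke and 2 lower, among them Lgmn, an asparagine-specific protease, by 0.75 (5.00e-06) and Ctsh by -0.94 (2.58e-05).

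The interferon-gamma axis is the known route to Ciita. Under smoke 6 of its 9 measured genes were higher and 1 lower in p65-deficient than in wild type mice, and in air 6 were higher and none lower, with 0 lower at an unadjusted p under 0.05 and 1 lower under quantile normalization or median centring; the median was 0.54 in both. Ifngr2, a receptor chain, was higher by 0.56 ± 0.06 under smoke (adjusted p = 2.42e-06) and by 0.65 ± 0.06 in air (1.39e-06). Irf1, a factor that acts at the Ciita gene, was higher by 0.82 ± 0.10 under smoke (1.06e-05) and by 1.24 ± 0.10 in air (5.98e-07). Within p65-deficient mice Irf1 (-0.65 ± 0.10, 0.00259) and Irf8 (-0.43 ± 0.07, 0.00514) were lower under smoke, and no other gene of the list passed. Ifng itself averaged 5.74 in p65-deficient smoke, 5.84 in p65-deficient air, 5.81 in wild type smoke and 5.60 in wild type air arrays and passed in no comparison. Its mean over all arrays lay at percentile 23.4 of all genes, a low level at which a difference could be missed.

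Costimulatory genes give the second signal to T cells. In air 5 of 6 were higher in p65-deficient than in wild type mice, among them Cd86 by 1.30 ± 0.09 (adjusted p = 3.31e-07) and Cd83 by 1.12 ± 0.08 (2.91e-07). Under smoke 4 were higher and 1 lower, with Cd86 higher by only 0.33 (0.00953). Smoke lowered Cd83 in p65-deficient mice by -0.53 (0.00233), and in wild type mice it raised 3 of 6, among them Cd80 by 0.89 (0.000556) and Cd86 by 0.65 (0.000176). Interactions of Cd86 (-0.97, 0.000195) and Cd83 (-0.76, 0.000368) had the sign of that of Ciita.

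Markers of cells that can carry class II were read beside the members. In whole tissue, fewer cells of a type and less RNA per cell cannot be told apart. B cell markers (9 of 10 measured) had a mean log2 level of 6.96 to 7.05 in p65-deficient smoke, 7.33 to 7.39 in p65-deficient air, 5.89 to 6.24 in wild type smoke and 6.6 to 6.79 in wild type air arrays. This is the group order of the members, and the T cell markers given below ran in it too. The interferon-gamma axis shared it by the median array, with 9.33 in p65-deficient smoke, 9.52 in p65-deficient air, 8.98 in wild type smoke and 9.01 in wild type air. Of the 9 B cell markers, 8 were higher in p65-deficient mice under smoke and 8 in air. Under smoke against air, 3 of these markers were lower in p65-deficient and 4 in wild type mice. Ms4a1, the B cell surface protein CD20, was lower under smoke by -0.90 in p65-deficient mice (adjusted p = 8.36e-05) and by -1.90 in wild type mice (2.33e-09).

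Type II alveolar cell markers ran 12.11 to 12.23 in p65-deficient smoke, 12.11 to 12.15 in p65-deficient air, 9.08 to 9.32 in wild type smoke and 11.19 to 11.38 in wild type air arrays. All 10 were higher in p65-deficient mice in both exposures, with medians of 3.06 under smoke and 0.91 in air, and all 10 were lower under smoke in wild type mice (median -2.05). For smoke against air in p65-deficient mice, 1 of these 10 was higher and none was lower by limma, with a median of 0.05. None was lower at an unadjusted p under 0.05 either. Over all genes 2.41% passed in that comparison and 1.72% were lower by the test.

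Macrophage markers ran 9.50 to 9.65 in p65-deficient smoke, 9.65 to 9.72 in p65-deficient air, 9.87 to 9.99 in wild type smoke and 8.98 to 9.25 in wild type air arrays. Of 10, 9 were higher in p65-deficient mice in air (median 0.46), while under smoke 1 was higher and 6 were lower (median -0.44). Beside this, 7368 of all 19937 genes were lower in that smoke comparison. Csf1r, the receptor for macrophage colony stimulating factor, had an interaction of -1.21 (adjusted p = 1.98e-07).

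Dendritic cell markers ran 6.79 to 6.85 in p65-deficient smoke, 6.97 to 6.98 in p65-deficient air, 6.45 to 6.56 in wild type smoke and 6.36 to 6.57 in wild type air arrays. Set against wild type mice in the same exposure, 4 of 10 were higher and 1 lower in p65-deficient mice under smoke, and 5 were higher in air; the lower one was Cd209a (-0.39, adjusted p = 0.00158), named after its value was seen. Smoke against air in p65-deficient mice gave 2 lower of 10, Xcr1 (-0.69, adjusted p = 0.00244) and Clec9a (-0.67, 0.00333), which mark cross-presenting dendritic cells. T cell markers (9 of 10 measured) ran 6.88 to 6.96 in p65-deficient smoke, 7.12 to 7.27 in p65-deficient air, 5.99 to 6.28 in wild type smoke and 6.31 to 6.45 in wild type air arrays. Of 9, 7 were higher in p65-deficient mice under smoke and 8 in air. Carcinoma and cycling cell markers ran 10.40 to 10.56 in p65-deficient smoke, 10.41 to 10.52 in p65-deficient air, 9.930 to 9.998 in wild type smoke and 10.44 to 10.48 in wild type air arrays. That mean joins genes that went opposite ways. Under smoke the epithelial genes Cdh1 (3.59) and Epcam (3.12) were higher in p65-deficient than in wild type mice, while 4 of 7 were lower, among them the proliferation genes Mki67 (-1.48) and Top2a (-1.20), named after their values were seen. Beside this, 7368 of all 19937 genes were lower in that comparison. In air Mki67 (-1.11) and Top2a (-1.05) were lower as well, and 3 of 7 were higher and 3 lower. An array level has no true zero, so no marker can be called absent. The part of these cell types in the class II differences was not tested.

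**Figure D4:**
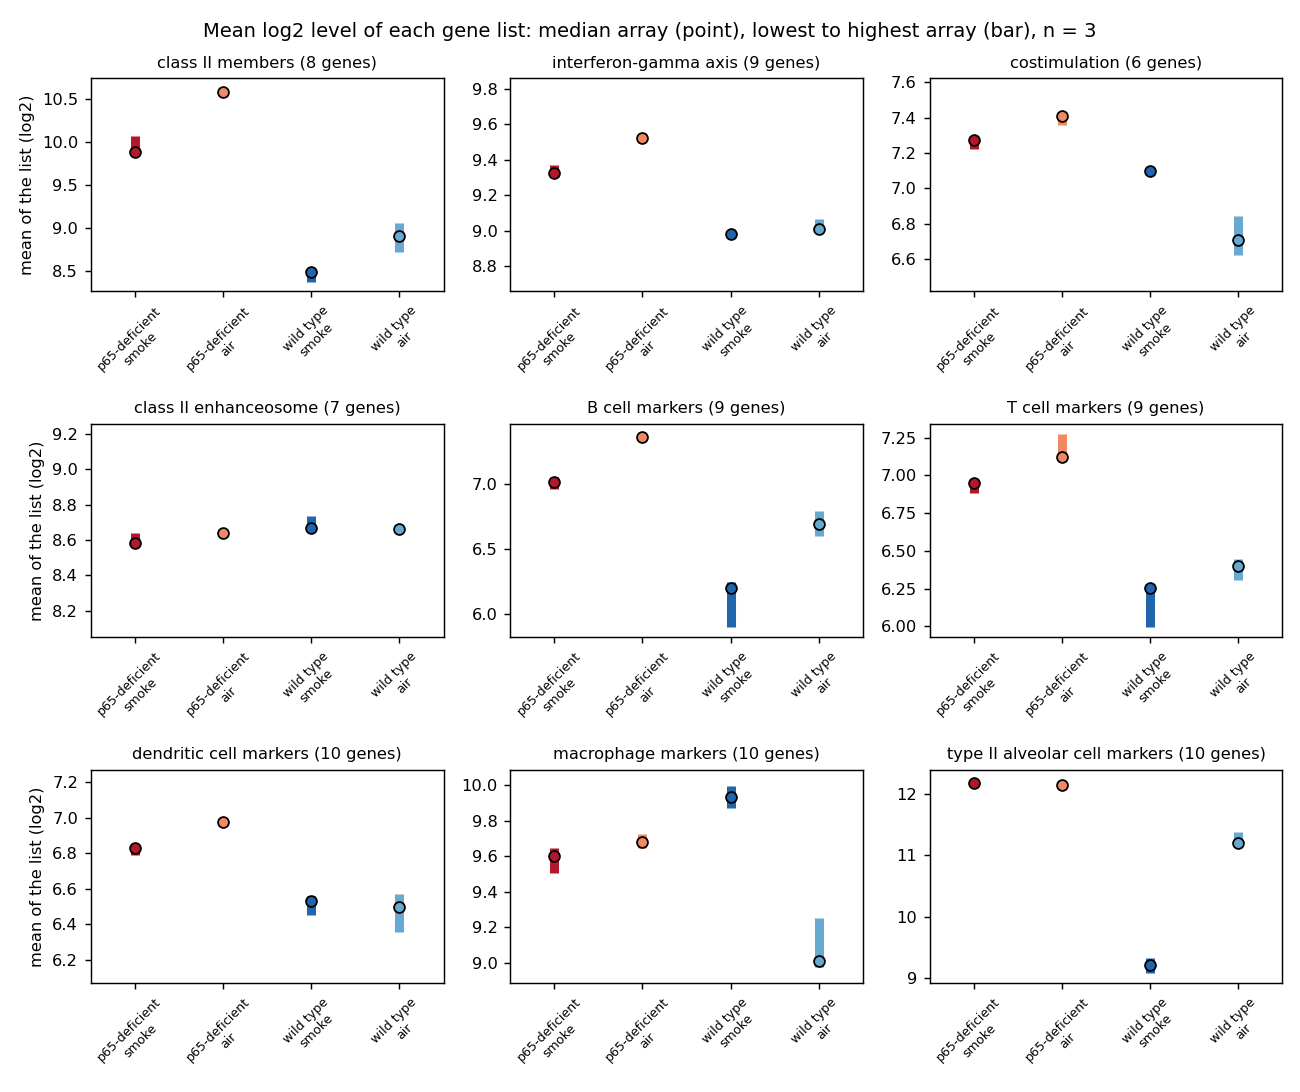
Mean log2 intensity of 9 gene lists (horizontal axis: group, p65-deficient smoke, p65-deficient air, wild type smoke, wild type air), with the median array as a point and a bar from the lowest to the highest array. By the median array, the interferon-gamma axis and the B cell and T cell markers follow the group order of the class II genes. The type II alveolar cell markers are lowest in wild type smoke, at 9.08 to 9.32.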

How the data were processed

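Lung tissue of 4 groups, 3 arrays each, was measured on Affymetrix arrays. The log2 values were used as deposited; the authors made them in Affymetrix Expression Console with RMA, per the submitters' processing notes, which give no version. RMA subtracts background, normalizes across arrays and combines the probes of a set; array medians over the genes used still ran between 7.26 and 7.51. Of 34760 probe sets, 21640 named 1 gene and 1321 several; 11799 were not listed in the platform annotation. Each gene took its brightest probe set, giving 19937 genes.

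All 12 arrays entered 1 limma 3.58.1 fit (R 4.3.3) of the 4 group means, moderated by empirical Bayes (prior df 4.83, residual df 8), from which 5 contrasts were read. Tests were 2-sided, adjusted by Benjamini-Hochberg over all genes, with a limit of 0.05; SEs are moderated. The script was tested on simulated data. Array count limits precision; depth does not apply. Alternatives were a filter on dim genes (15007 genes kept, those reaching log2 6 on 3 or more arrays), 2 other ways of treating probe sets, an intensity trend, array weights, quantile normalization, median centring, the replicate number as a block, a fit of only the arrays compared, and dropping single arrays. The members and lists were chosen with earlier results of these data known. Members are named in full; of each pathway list up to 4 genes past the test with the smallest p, of each marker list 2, with Rela and H2-Ea. The labels do not say whether the replicate numbers pair samples, and the main fit did not pair them. Of 18 same-numbered pairs, 7 had deviations that correlated above 0.1, with values from -0.363 to 0.365. Differently numbered pairs were not set beside them, so this does not decide the matter. Promoter windows are RefSeq's (GRCm38.p6), searched in Python 3.11.15; figures used matplotlib 3.10.9. Also run, after the members' values had been seen, was a fit of each gene's level minus that of Ciita on the same array; it is not reported, since nearly all genes passed on that scale and it mostly carries the movement of Ciita itself.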

Additional observations from a re-analysis of the deposited data

Results flagged for a closer look

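Smoke acted differently in the 2 genotypes, by the limma interaction test (smoke difference in p65-deficient mice minus that in wild type mice, log2, adjusted p under 0.05), for 3 class II genes: H2-DMa (-0.61), H2-Oa (-0.52) and Ciita (-1.0). In the locus the interaction was -1.62 for H2-Eb2, which averaged below log2 6 in both wild type groups, and 5.87 for H2-Ea. Pathway genes with such a difference were Ctsh (0.89), Lgmn (-0.58), Irf8 (-0.58), Cd80 (-0.84), Cd86 (-0.97) and Cd83 (-0.76). Among markers it was 1.00 for Ms4a1 and 0.45 for Cd79b (B cells), -0.87 for Xcr1 and 0.79 for Itgax (dendritic cells), -1.21 for Csf1r and -1.71 for Adgre1 (macrophages). It was 2.79 for Sftpb and 2.49 for Sftpa1 (type II alveolar cells), 0.61 for Cd3g (T cells), and 2.64 for Cdh1 and 2.15 for Epcam (epithelium). The markers named are those of each list with the smallest p, beside 14.6% of all genes that passed. Over the whole lists, 8 of 10 macrophage markers passed with a negative value and all 10 type II alveolar cell markers with a positive one. Of 9 B cell markers 2 passed, both positive (list median 0.08), and of 9 T cell markers 1 did, positive (list median -0.09). Of 10 dendritic cell markers 1 passed with a positive and 2 with a negative value (list median -0.16). Of 7 carcinoma and cycling cell markers 2 were positive and 1 negative. The gap rule for a single outlying value was not applied to groups of 3 arrays; wild type smoke replicate 1 had the lowest array weight, 0.177.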

How the results depend on the processing

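Over 832 recomputed differences of the 8 genes, 829 kept their direction. The 3 others were Ciita for smoke in wild type mice, which was not past the test in any setting. Many of the 832 could not change direction, since the difference itself stayed the same and only its p-value could move. This holds for the filter, the probe set choices, the intensity trend, the block and the fit of only the arrays compared. It also holds for dropping an array outside the comparison. A call changed in 39: 30 were gained and 9 lost, all 9 in the H2-Oa interaction, and none changed in either genotype comparison, where all 8 genes stayed past the test. With array weights the counts were 8 for smoke in p65-deficient mice, 7 in wild type mice and 6 for the interaction, and with the arrays of the comparison alone 8 for smoke in p65-deficient mice; the cause was not tested, and the arrays alone give a spread from fewer samples. Leaving out 1 array gave 3 to 5 genes for smoke in p65-deficient mice, 4 to 7 in wild type mice (7 without wild type smoke replicate 1) and 2 to 4 for the interaction. With the replicate number as a block the counts were 8 and 8 for genotype in air and smoke, 3 and 4 for smoke in p65-deficient and wild type mice, and 3 for the interaction, and no call on a member changed; over all genes it gave 7778, 11919, 440, 6084 and 3020 calls.

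Counts over all genes moved more. Smoke in p65-deficient mice gave 481 calls, 1368 with array weights, 1018 with those arrays alone and 261 to 320 when an array of the comparison was left out. Smoke in wild type mice gave 5778 calls, 10211 with array weights, 9852 with median centring, 3454 with those arrays alone, 3695 without wild type air replicate 3 and 8824 without wild type smoke replicate 1. The interaction gave 2909 calls, 6662 under array weighting, and 4969 once wild type smoke replicate 1 was dropped. Median centring changed the share of calls that were higher to 39.6% for genotype in air (53.2% as deposited), 22.9% under smoke (38.0%), 77.1% for smoke in wild type mice (51.8%) and 41.4% for the interaction (60.9%). It moved the median of all genes under smoke to -0.28, against -0.14 as deposited. The median of the enhanceosome genes for genotype in air turned from 0.03 to -0.05 under quantile normalization and median centring, and costimulation and dendritic cell counts under smoke moved by 1 to 2 genes.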
